A study of Macaca mulatta with 6 samples.

Results

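The 10 genes described here mark oligodendrocyte precursors, and their RNA was followed in cortical neurons isolated from male rhesus monkeys (Macaca mulatta) by sequencing polyadenylated RNA. The genes were PDGFRA, OLIG1, OLIG2, SOX10, BCAN, NCAN, VCAN, TNR, PTPRZ1 and GPR17, a set named by symbol that joins lineage factors, receptors and matrix genes of precursors. A rhesus Ensembl identifier in the deposited table of 23191 genes was tied to a symbol for 7 of the 10, and all 7 had a mean of at least 10 normalized counts, the level set for testing. OLIG1, SOX10 and NCAN were not analysed here because no row of the table could be tied to them.

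There were 3 libraries from animals injected under the skin with morphine, an opioid, and 3 from animals injected with saline. Injections of morphine went on for 90 days, 3 times daily, with 3 mg/kg in the first days and 15 mg/kg from day 29, and the saline animals received 0.5 mL/kg of 0.9% saline on the same schedule. The 4 animals were 3 to 4 years old, with 2 in each group, so at least 2 libraries of a group share an animal, and the description labels carry 1 code per group. P-values therefore measure only how these libraries vary and are too small as tests over animals, and treatment and animal cannot be told apart. The libraries held 31238653 to 36345095 recovered reads, and differed in groups of markers of other cells, as given at the end.

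Oligodendrocyte precursors are the dividing cells of the adult brain that renew the myelin-forming oligodendrocytes. OLIG1, OLIG2 and SOX10 are transcription factors that set and hold this lineage, and PDGFRA is the receptor through which platelet-derived growth factor drives precursors to divide and survive. GPR17 appears in precursors that have begun to mature. BCAN, NCAN and VCAN (brevican, neurocan and versican) are lecticans, proteoglycans that carry chondroitin sulfate and bind hyaluronan. TNR, the tenascin-R gene, encodes a protein that links lecticans into nets. PTPRZ1 encodes a receptor phosphatase that also carries chondroitin sulfate. These roles are known mainly from mouse and human. Several of the genes are also made by other cells: BCAN, NCAN and PTPRZ1 by astrocytes, NCAN and TNR by neurons, and PDGFRA and VCAN by fibroblasts of vessels and meninges. The name of the set thus describes how the genes are used as markers and does not show which cells made the RNA.

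OLIG2, BCAN and TNR rose with morphine, and no measured member fell in limma on log2(normalized count + 1), the test used throughout (Benjamini-Hochberg adjusted p under 0.05 over all 16595 genes tested). The differences were small. OLIG2, the largest, was 1.43 times as high in morphine as in saline libraries. PTPRZ1 was the 1 measured member with lower values in morphine libraries. In such bulk RNA fewer cells of a type and less RNA per cell cannot be told apart.

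OLIG2 (ENSMMUG00000017652), a helix-loop-helix factor needed to form oligodendrocytes, had 3457, 3305 and 3402 normalized counts in morphine libraries 1, 2 and 3, against 2432, 2209 and 2469 in saline libraries 1, 2 and 3. The lowest morphine library lay 836 normalized counts above the highest saline library. Means were 3388 ± 77.3 in morphine and 2370.1 ± 141 in saline libraries (SD, n = 3 each). The log2 fold change was 0.52 ± 0.0639 (SE; limma adjusted p = 0.00636). The 95% interval of the fold change ran from 1.28 to 1.60. OLIG2 passed in limma with each of the 6 libraries left out (adjusted p from 0.0187 to 0.0287). Among all genes tested, 23.8% had a larger absolute log2 fold change.

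PDGFRA (ENSMMUG00000017395), the growth factor receptor that defines precursors in many studies, had 5127, 4879.6 and 5119 normalized counts in morphine libraries and 4426, 4628 and 4513 in saline libraries. The groups did not overlap, but the difference of means was 11.5%. The log2 fold change of 0.16 ± 0.0507 (SE) did not pass in limma (adjusted p = 0.0753, 95% interval 0.03 to 0.29). It passed in edgeR and DESeq2 on the recovered reads (adjusted p = 0.0188 and 0.00519), and in the authors' deposited table (log2 fold change 0.16 ± 0.0489, adjusted p = 0.00633).

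GPR17 (ENSMMUG00000004180), a G protein-coupled receptor of maturing precursors, had 658, 765 and 727 normalized counts in morphine libraries and 479, 511 and 654 in saline libraries. Saline library 3 stood close to the morphine libraries, with a gap of only 3.99 normalized counts to the lowest of them. The coefficient of variation was 7.60% in morphine and 17.0% in saline libraries, where counting of reads alone gives 3.71% in morphine and 4.33% in saline libraries. The log2 fold change of 0.40 ± 0.139 (SE) did not pass in limma (adjusted p = 0.0900), and its 95% interval ran from 0.05 to 0.75. Without saline replicate 3 it was 0.53 and passed (limma adjusted p = 0.0317). It also passed in edgeR (adjusted p = 0.0490), in DESeq2 (adjusted p = 0.0138) and in the authors' deposited table (adjusted p = 0.0242).

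PTPRZ1 (ENSMMUG00000012418), the receptor phosphatase, had 16256, 16674 and 16527 normalized counts in morphine libraries, against 17421, 18929 and 18443 in saline libraries. All 3 morphine libraries lay below all 3 saline libraries, and the saline libraries were spread more widely (SD 769.9 normalized counts, against 212 in morphine libraries, n = 3 each). The log2 fold change was -0.15 ± 0.0541 (SE), with a 95% interval from -0.28 to -0.01, and did not pass in limma (adjusted p = 0.102). In edgeR and DESeq2 on the recovered reads PTPRZ1 passed as lower in morphine libraries (adjusted p = 0.0122 and 0.00104), as it did in the authors' deposited table (log2 fold change -0.15 ± 0.0360, adjusted p = 0.000280).

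BCAN (ENSMMUG00000017093), the brevican gene, had 13362, 12925 and 12812 normalized counts in morphine libraries and 10729.7, 10801 and 10654 in saline libraries. The groups were 2011 normalized counts apart, and the saline libraries varied by 0.688%, less than the 0.973% that counting gives. On the log2 scale BCAN rose by 0.28 ± 0.0467 (SE; limma adjusted p = 0.0132). It passed with each library left out, close to the threshold (limma adjusted p from 0.0399 to 0.0479).

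TNR (ENSMMUG00000015723), the tenascin-R gene, had 521, 550.2 and 568 normalized counts in morphine libraries and 436, 463 and 484 in saline libraries. The groups did not overlap, with a gap of 36.7 normalized counts. On the log2 scale TNR rose by 0.24 ± 0.0658 (SE; limma adjusted p = 0.0468). That call was lost with any of the 6 libraries left out (limma adjusted p from 0.0654 to 0.127). It was also lost in edgeR (adjusted p = 0.0707), in DESeq2 (adjusted p = 0.114) and in the authors' deposited table (adjusted p = 0.169).

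VCAN (ENSMMUG00000011513), the versican gene, had 727, 674 and 609 normalized counts in morphine libraries and 525, 553 and 613 in saline libraries. It was the 1 measured member whose groups overlapped: morphine library 3 lay just below saline library 3. The log2 fold change of 0.25 ± 0.0962 (SE) was close to that of TNR but did not pass in limma (adjusted p = 0.115, 95% interval 0.00 to 0.49), nor under any other setting tried.

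**Figure D1:**
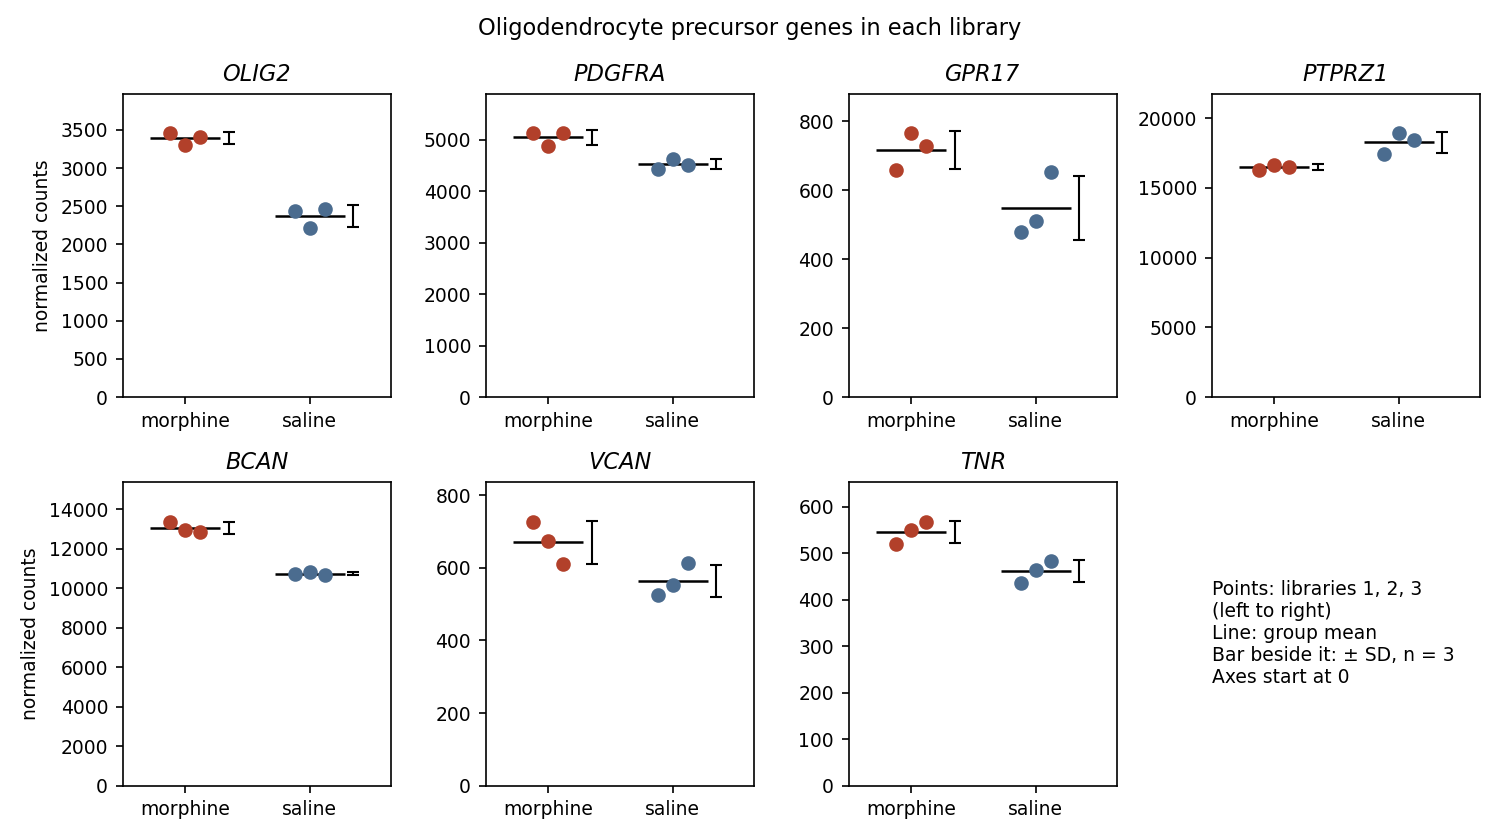
Normalized counts (vertical axes, from 0) of the 7 measured genes in the 3 morphine libraries (left of each panel) and the 3 saline libraries (right), with the group mean as a line and ± SD as a bar (n = 3). The groups are separate in 6 panels and overlap for VCAN, and PTPRZ1 is the 1 gene with lower morphine values.

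Of the 7 measured genes, 3 rose and 0 fell in limma (PTPRZ1 was lower at an unadjusted p under 0.05), where 27.9% of all genes tested were called (12.9% rose and 15.0% fell). Abundant genes were called more often. All 7 had means above 500 normalized counts, and among the 8829 genes at or above that level 36.3% were called and 15.8% rose. At an unadjusted limma p under 0.05 all 7 passed, as did 41.8% of all genes tested. The groups did not overlap for 6 of the 7, against 48.7% of all genes tested. They were higher in morphine libraries for 5 members (24.1% of all genes) and lower for PTPRZ1 (24.6% of all genes). The shares of 41.8% and 48.7% were not also taken among genes at or above 500 normalized counts, the level of the members. The median log2 fold change of the 7 was 0.25, beside 0.01 for all genes tested, while the median absolute value was 0.248 for the members and 0.259 for all genes tested. The median member was thus not further from 0 than the median gene, though OLIG2 (0.52), GPR17 (0.40) and BCAN (0.28) were. Of the 7 members, 6 had higher means in morphine libraries. In edgeR 4 of the 7 rose and 1 fell (34.0% of all genes called), in DESeq2 4 rose and 1 fell (36.8% called), and the authors' deposited table called OLIG2, BCAN, PDGFRA and GPR17 higher and PTPRZ1 lower (29.5% of all genes called). The estimate of no member reached 1.5 fold, whereas 19.8% of all genes tested had a log2 fold change beyond that size.

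**Figure D2:**
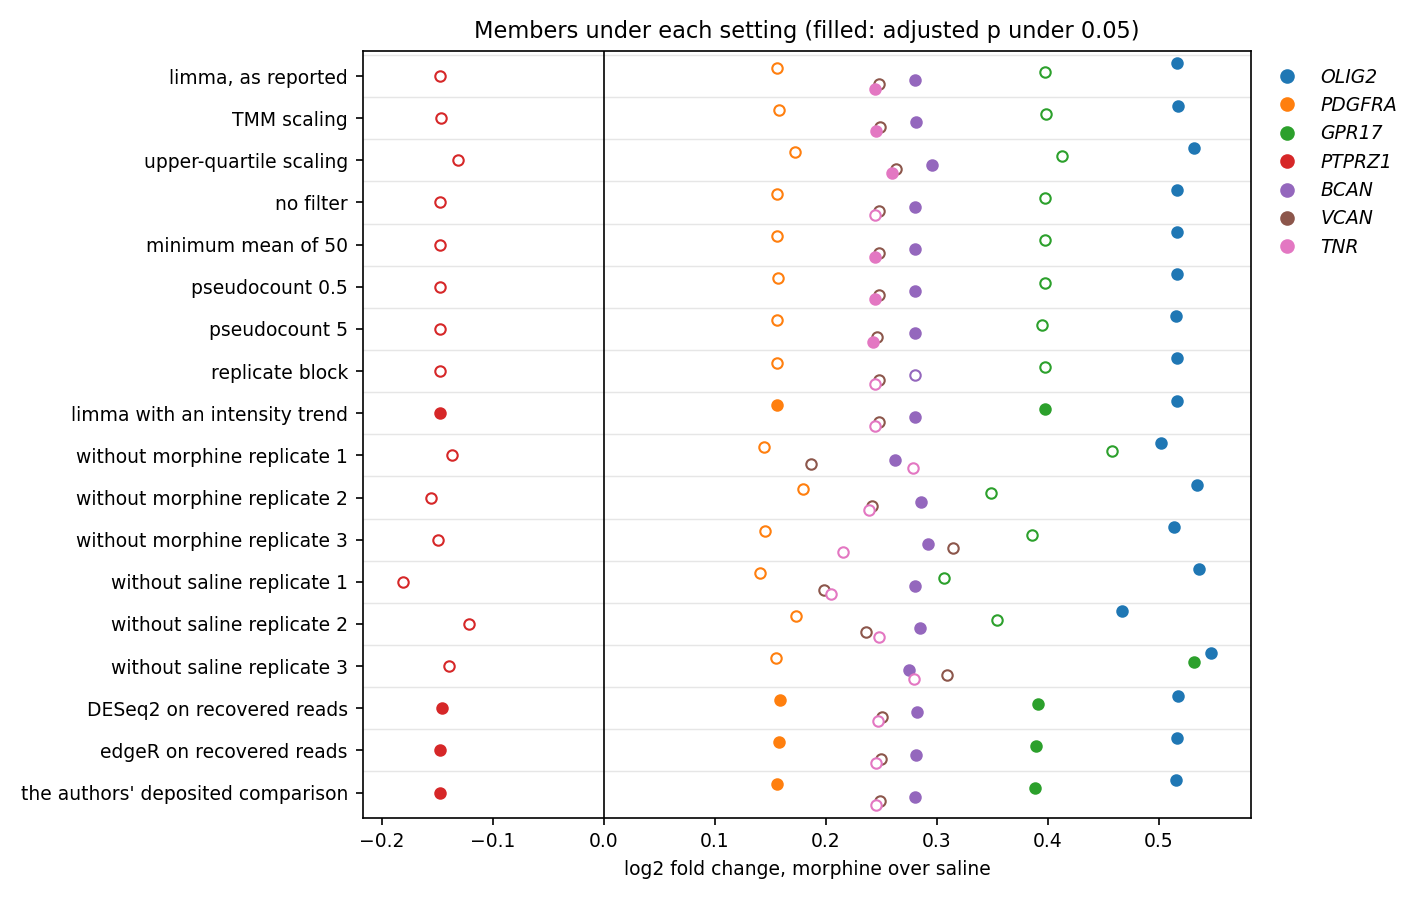
Log2 fold change, morphine over saline (horizontal axis), of the 7 genes under each setting (rows), with filled points where the adjusted p was under 0.05 and open points where it was not. OLIG2 is filled in every row, BCAN in all but the replicate block, VCAN in none, and PTPRZ1 lies left of 0 throughout.

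The members were also compared with each other. Within each library the log2 ratio of each pair of measured members was taken, which no scaling of libraries can change. Of the 21 pairs, 11 had ratios that did not overlap between morphine and saline libraries, and PTPRZ1 was in 6 of them. Over all pairs of tested genes with no 0 value the share without overlap was 43.6%, and it was 58.9% over pairs of genes with means of at least 500 normalized counts. The count of 11 lies between these shares, so nothing particular to the members is read from it. The ratio of OLIG2 to PTPRZ1 differed most: its mean log2 value was -2.28 in morphine and -2.95 in saline libraries, a difference of 0.66. The ratio of BCAN to PTPRZ1, both of which carry chondroitin sulfate, was higher by 0.43 in morphine libraries. The ratio of PDGFRA to OLIG2 was lower in morphine libraries, with means of 0.57 in morphine and 0.93 in saline libraries. Among the matrix genes BCAN, VCAN and TNR, pair ratios differed by 0.03, 0.04 and 0.00 and overlapped. For each of the 11 pairs the two-sided exact permutation p was 0.1, the smallest that 3 libraries against 3 allow, and 0.191 after Benjamini-Hochberg adjustment over the 21 pairs.

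**Figure D3:**
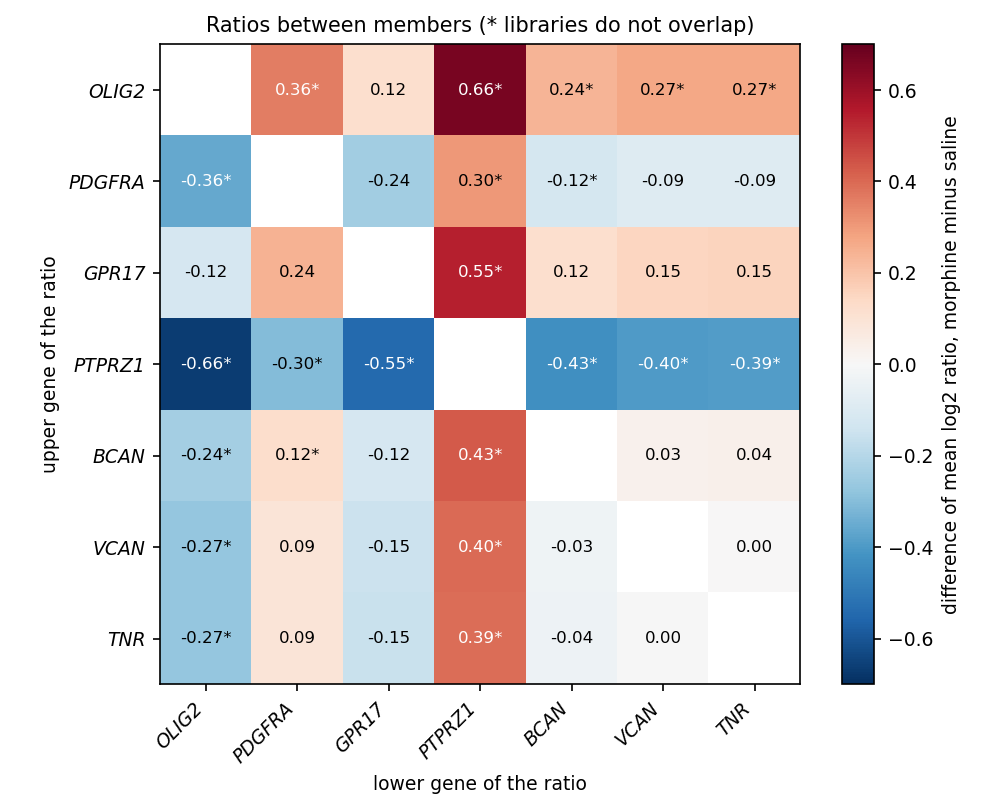
Difference of the mean log2 ratio between 2 members, morphine minus saline (colour and number; the row is the upper gene of the ratio and the column the lower), with an asterisk where the 3 morphine and the 3 saline libraries do not overlap. The PTPRZ1 row and column carry an asterisk for all 6 partners, and OLIG2 for 5 of 6.

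The libraries labelled as neurons also held much myelin RNA, so the members were set against it. MBP, the gene of myelin basic protein, averaged 202716 ± 883 normalized counts in morphine libraries, against 192902 ± 3182 in saline libraries (SD, n = 3 each). It did not pass in limma (log2 fold change 0.07 ± 0.0452), but its groups did not overlap. In the authors' deposited table MBP passed as higher in morphine libraries (adjusted p = 0.00553). Per 100 normalized counts of MBP, OLIG2 stood at 1.67 in morphine and 1.23 in saline libraries, a ratio of 1.36, and the libraries did not overlap. Against MBP, 3 of the 7 members were higher in every morphine library (OLIG2, BCAN and TNR), and PTPRZ1 was lower in every one. These 4 of 7 ratios without overlap stand beside 58.9% over all pairs of genes with means of at least 500 normalized counts. Nothing particular to the members is read from this count.

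Other genes used as precursor markers went both ways. Of 19 measured, 6 rose and 3 fell, with a median log2 fold change of 0.21. In the 6 fits with 1 library left out, 3 or 4 of them rose and 3 fell. NEU4, a sialidase, rose by 0.35, and CSPG4, the NG2 proteoglycan found on nearly all precursors, had 1118, 1326 and 1143 normalized counts in morphine libraries and 971, 935 and 969 in saline libraries. CSPG4 rose by 0.32 (limma adjusted p = 0.0422), but not with any 1 library left out (adjusted p from 0.0634 to 0.112). LUZP2 had 4189, 3929 and 4076 normalized counts in morphine libraries, against 8716, 8762 and 8802 in saline libraries, and fell by 1.11 (adjusted p = 0.00114). The largest difference among precursor markers was therefore a fall. SULF2, which trims sulfate from heparan sulfate, fell by 0.57, and CA10 fell by 0.39.

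The next stages of the lineage were mixed as well. Of 8 genes of newly formed oligodendrocytes, 1 rose and 2 fell: BMP4, a ligand that holds back maturation, rose by 0.61, while BCAS1 fell by 0.41 and ITPR2 by 0.42. NFASC, the neurofascin gene, did not pass (log2 fold change 0.38 ± 0.117), but did without saline replicate 3 (limma adjusted p = 0.0219) and in edgeR (adjusted p = 0.0322). Of 10 measured myelin genes 4 rose and 3 fell, with a median of 0.03; CNDP1 rose by 0.56 and MAL by 0.61. With 1 library left out, 2 or 3 of the 10 rose and 0 to 2 fell. MOG rose by 0.22 but did not pass with any 1 library left out (limma adjusted p from 0.0565 to 0.0768), and UGT8 fell by 0.50 but its call was lost when morphine library 1 or 2 or saline library 1 was left out (adjusted p = 0.0540, 0.0548 and 0.0501).

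Among 5 other measured lineage factors, 0 rose and 2 fell. ID2, an inhibitor of helix-loop-helix factors such as OLIG2, had 3676, 3954 and 4043 normalized counts in morphine libraries, against 5359, 5771 and 5132 in saline libraries, and fell by 0.48. ID4, a relative of ID2, fell by 0.28, but its call was lost when morphine library 2 or 3 or saline library 1 or 2 was left out (limma adjusted p = 0.0680, 0.0641, 0.0593 and 0.0591). ST18, a zinc finger factor, did not pass (log2 fold change -0.12 ± 0.0961). Of 8 measured cell cycle genes, 0 passed in limma, among them MCM2 (log2 fold change 0.35 ± 0.105), BIRC5 (0.71 ± 0.223), PCNA (-0.15 ± 0.143) and MCM5 (-0.37 ± 0.195). At an unadjusted limma p under 0.05, 2 of the 8 passed, both higher in morphine libraries. BIRC5 passed in DESeq2 (adjusted p = 0.0433) and in limma without saline replicate 1 (adjusted p = 0.0293), and 0 of the 8 passed in edgeR. MKI67 and CCNB2 were below the level for testing.

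The genes of the PDGF ligands differed in direction. PDGFA, its main ligand in the brain, had 419, 612 and 473 normalized counts in morphine libraries and 474, 480.1 and 495 in saline libraries, and did not pass (log2 fold change 0.04 ± 0.148; -0.12 without morphine replicate 2). PDGFC, which also binds PDGFRA, fell by 0.60 at low levels, 62.6 to 78.8 normalized counts in morphine libraries, against 101 to 119 in saline libraries. Its call was lost without morphine replicate 1 or saline replicate 2 (limma adjusted p = 0.0552 and 0.0506), in DESeq2 (adjusted p = 0.0921) or in the authors' deposited table (adjusted p = 0.140). PDGFB fell by 0.29, but passed only without saline replicate 2 among the 6 fits with 1 library left out (adjusted p up to 0.0703). PDGFD, a ligand of the related receptor PDGFRB, rose by 1.86 at 16.3 to 27.2 normalized counts in morphine libraries, against 3.16 to 8.88 in saline libraries. Its call was lost when morphine library 1 or 2 or saline library 2 was left out (limma adjusted p = 0.0654, 0.0665 and 0.0645), and in the authors' deposited table (adjusted p = 0.0596).

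The matrix around the lecticans held some rises. Of 8 measured partners of lecticans and tenascins, 3 rose and 0 fell, and 1 or 2 rose with 1 library left out. TNC, the tenascin-C gene and a relative of TNR, had 2308, 2374 and 2323 normalized counts in morphine libraries, against 1923, 1883 and 1862 in saline libraries, and rose by 0.31 (limma adjusted p = 0.0103). HAPLN4, a link protein that joins lecticans to hyaluronan, rose by 0.29, but its call was lost when morphine library 2 or 3 or saline library 1 or 3 was left out (adjusted p = 0.0604, 0.0557, 0.0563 and 0.0568). HAS3, a hyaluronan synthase, rose by 0.30, but not with any 1 library left out (adjusted p from 0.0580 to 0.131). ACAN, the fourth lectican, did not pass (log2 fold change 0.73 ± 0.265).

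Proteases that cut lecticans were divided: of 5 measured, 2 rose and 2 fell, and with 1 library left out 0 to 2 rose and 1 or 2 fell. ADAMTS1 fell by 0.44 (limma adjusted p = 0.0503 without saline replicate 2). ADAMTS9 fell by 0.60 (adjusted p = 0.0501 and 0.0525 without morphine replicate 1 and 2). ADAMTS8 rose by 0.36, but passed only without morphine replicate 1 among the fits with 1 library left out (adjusted p up to 0.0761). ADAMTS5 rose by 0.39, with the same exception (adjusted p up to 0.0819), and did not pass in edgeR (adjusted p = 0.344). Of 18 measured enzymes that build chondroitin sulfate, 2 rose and 4 fell, with a median of 0.05, and 2 to 4 fell with 1 library left out. CHPF2 rose by 0.45 and B3GAT3 by 0.38. DSE, which turns chondroitin into dermatan sulfate, fell by 0.61. CHST7, a sulfotransferase, fell by 0.37, with an adjusted p of 0.0561 without morphine replicate 2.

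Genes tied to PTPRZ1, its ligands and binding partners and its nearest relative PTPRG, mostly fell. Of 5 measured, 4 fell and 0 rose (3 of 4 fell without PTPRG), and 4 fell in each fit with 1 library left out. Over all genes tested 15.0% fell. Among genes with means of at least 500 normalized counts, a level that all 5 exceeded, 36.3% were called in either direction. Pan-neuronal markers also fell more often than they rose, as given below. PTN, the gene of pleiotrophin, a ligand that binds PTPRZ1, had 12284, 12028 and 11547 normalized counts in morphine libraries, against 17688, 17099 and 16929.6 in saline libraries. PTN fell by 0.53 (limma adjusted p = 0.00407). CNTN1, a contactin that PTPRZ1 binds, fell by 0.85 and NRCAM by 0.66. PTPRG, a receptor phosphatase of the same family, fell by 0.50. These 4 falls were each larger than the difference in PTPRZ1 itself.

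Of 10 tested neighbours of the members on the chromosome, 2 rose, 3 fell and 5 did not pass, where 27.9% of all genes tested were called. The 10 include neighbours of OLIG1, SOX10 and NCAN, which were not measured themselves. In RefSeq's gene table of the rhesus assembly T2T-MMU8v2.0, used here for order only, OLIG1 and OLIG2 lie beside each other. BCAN lies between HAPLN2 and NES, and NES, the nestin gene, fell by 0.44 where BCAN rose (adjusted p = 0.0506 and 0.0517 without morphine replicate 2 and 3). PTPRZ1 lies between FAM3C and AASS, which fell by 0.64 and 0.89 in limma (adjusted p = 0.00266 and 0.00322). PTPRZ1 itself did not pass in limma. HAPLN4, given above, lies beside NCAN. GPR17, which did not pass in limma, lies beside LIMS2, which rose by 0.27 (adjusted p = 0.0264). Among the 6 fits with 1 library left out, LIMS2 passed only without saline replicate 1 (adjusted p up to 0.0832).

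**Figure D4:**
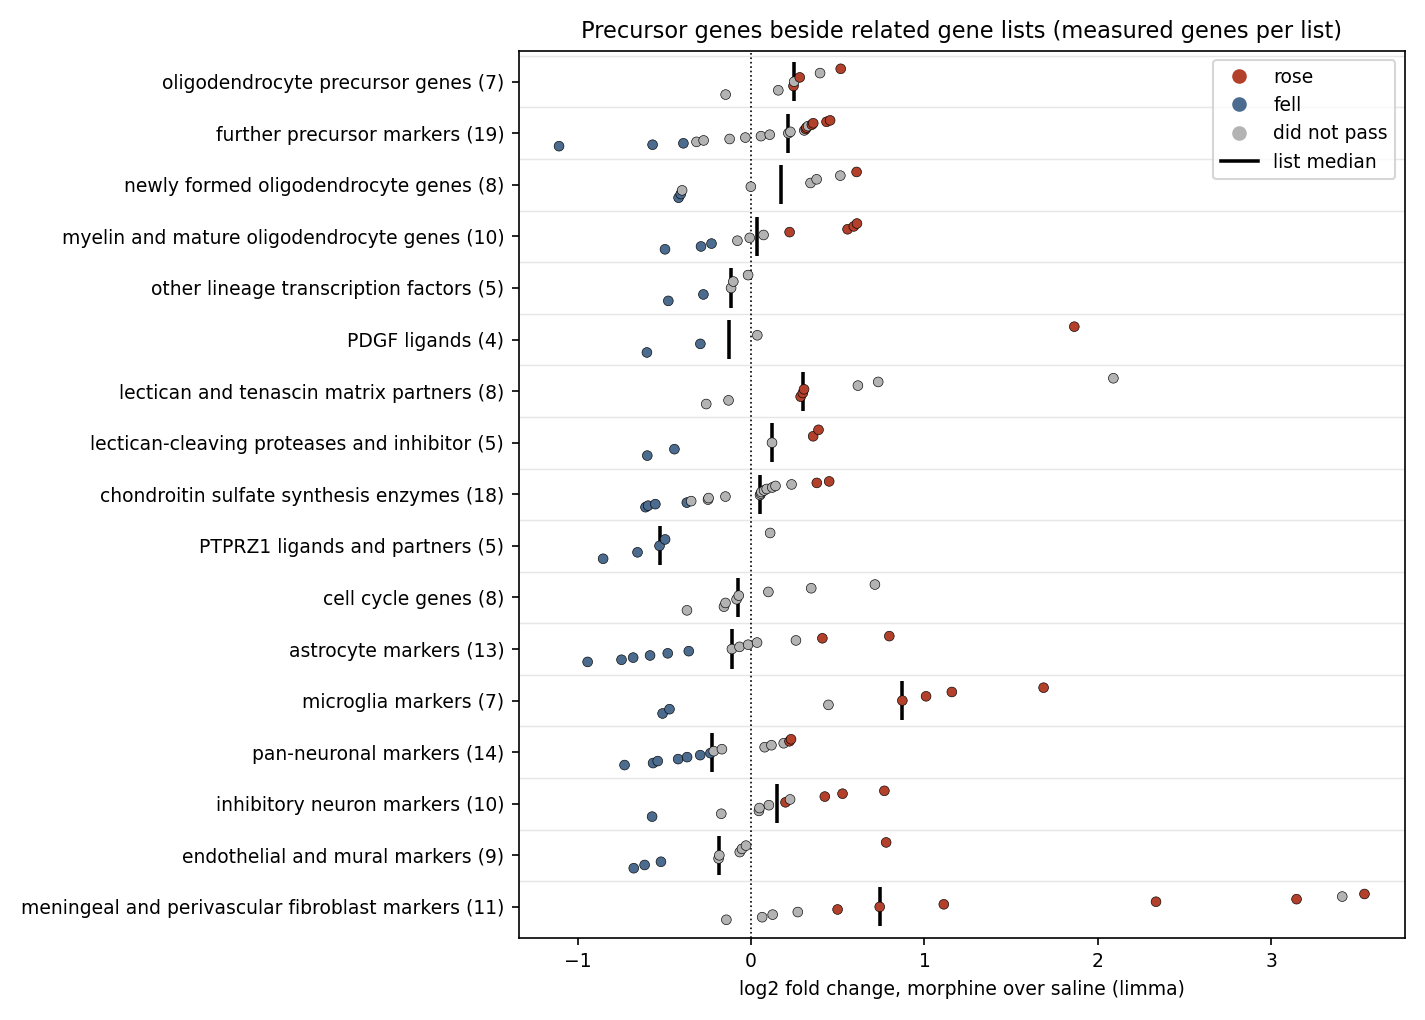
Log2 fold change, morphine over saline (horizontal axis), of each measured gene in the precursor set and in the other lists (rows, with the number of measured genes), coloured by call, with the list median as a black line. The precursor set lies between -0.15 and 0.52, with a median of 0.25. Several lists reach much further right, among them the microglia, fibroblast, PDGF ligand and matrix partner lists. The genes tied to PTPRZ1 lie mostly left of 0.

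Markers of other cell types moved in the same libraries, and their part in the values above was not tested. Of 13 astrocyte markers 2 rose and 6 fell. Their summed level was 410820 to 462013 normalized counts in morphine libraries, against 474594 to 533611 in saline libraries. NDRG2 alone ran from 41925 to 90879 in morphine and from 43603 to 102283 in saline libraries. GJA1 fell by 0.94 and SLC1A3 by 0.58, while GFAP rose by 0.41. Of 7 microglia markers 4 rose and 2 fell, with sums of 7758 to 8315 in morphine and 5342 to 5681 in saline libraries; TREM2 rose by 1.69. Of 14 pan-neuronal markers 2 rose and 7 fell, with sums of 247121 to 251564 in morphine and 306256 to 316608 in saline libraries; NEFL fell by 0.73 and SNAP25 by 0.54. With any 1 library left out 0 pan-neuronal markers rose, while 4 rose in edgeR. Astrocyte and neuronal sums were thus lower in every morphine library, and the microglial sum was higher. Of 10 inhibitory neuron markers 4 rose and 1 fell, with sums of 32960.1 to 35317 in morphine and 30976 to 31829.9 in saline libraries. Of 9 endothelial and mural markers 1 rose and 3 fell, with sums of 11156 to 11827 in morphine and 13392 to 13659.8 in saline libraries. Of 11 fibroblast markers, a cell type that can also make PDGFRA and VCAN, 6 rose and 0 fell, with sums of 6998 to 7149 in morphine and 5071 to 5241 in saline libraries. COL1A1 rose by 3.54 and held 182 to 213 normalized counts in morphine libraries, against 14.0 to 19.7 in saline libraries. The measured precursor genes summed to 39765 to 40107 in morphine and 36449 to 38095 in saline libraries. No listed gene that had values, including those below the level for testing, was at 0 in all libraries. Besides the cell cycle genes, 4 lists had a direction with 0 genes: no other lineage factor and no gene tied to PTPRZ1 rose, and no matrix partner or fibroblast marker fell. These counts were also 0 at an unadjusted limma p under 0.05, in edgeR and in DESeq2.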

How the data were processed

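Expression was measured in 6 libraries of polyadenylated RNA, 3 per group, with groups and replicate numbers taken from the sample titles. The authors deposited normalized counts per gene, a signal scaled by a size factor for each library, as the values and file headers show. The authors also deposited log2 fold changes with standard errors, a test statistic (a score) and p-values, raw and adjusted, in the same table. The submitters' processing notes list DESeq2 1.18.1, StringTie, Bowtie2 2.1.0 and hg19 without saying what each was used for. Identifiers are those of rhesus genes, so no coordinates are given, and the strand setting of the counting is not stated in the labels. A table of gene names matched 15436 of 23191 identifiers (66.6%). Reads could be recovered: after division by what 1 read is worth, 100% of values were whole to within 0.001. DESeq2 called 6105 and edgeR 5636 genes on these recovered reads.

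Groups were compared on log2(value + 1) with limma 3.58.1 (R 4.3.3), with group as the only term, over genes with a mean of at least 10. P-values were two-sided and adjusted over all genes tested. This scale understates changes of low genes. The prior degrees of freedom were 1.27. Alternatives were other scalings, filters and pseudocounts, the replicate block, an intensity trend, each library left out, edgeR 4.0.16, DESeq2 1.42.0 and the authors' comparison. Libraries of a group differed by more than sampling noise (mean chi-square 17.5 to 23.8, where noise gives about 1). The level of 500 normalized counts, the member ratios and the chromosome neighbours were chosen after values had been seen.

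The members and the 16 other lists were chosen with earlier results of these data known. Named genes are all measured members, up to 4 genes of each list with the smallest limma adjusted p, and MBP, CSPG4, PDGFA, GFAP and COL1A1. NDRG2, NES, FAM3C, AASS and LIMS2 were chosen once their values were known. Further genes under this rule are not described singly or are not reported here. Plots used matplotlib 3.10.9 under Python 3.11.15.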

Additional observations from a re-analysis of the deposited data

How the results depend on the processing

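Each measured member kept its direction under all 17 alternatives. OLIG2 passed in all 17, BCAN in 16, TNR and GPR17 in 5 each, PDGFRA and PTPRZ1 in 4 each, and VCAN in 0. The count of members that rose, 3, was 2 with no filter, 1 with the replicate block, 4 in limma with an intensity trend, DESeq2, edgeR and the authors' deposited comparison, and 2 or 3 with 1 library left out. The count that fell, 0, was 1 (PTPRZ1) in limma with an intensity trend, DESeq2, edgeR and the authors' deposited comparison. Over all genes, 4631 were changed (2143 rose, 2488 fell). With no filter the counts were 2993, 1363 and 1630, where more low genes enter the adjustment. With 1 library left out they ranged from 2536 to 3181, from 1072 to 1497 and from 1464 to 1684. With the replicate block they were 1577, 681 and 896. The samples share only a number: deviations of same-numbered libraries correlated at -0.0563, -0.00392 and -0.0284, and no sample correlated best with its own number. Under the block, 0 of the 19 other precursor markers rose and 2 fell, and 2 of the 5 genes tied to PTPRZ1 fell. Among the named genes, 1 value turned sign, that of PDGFA, which lay between -0.12 (without morphine replicate 2) and 0.16 with 1 library left out, 0.04 with all libraries, and never passed. Among the measured members, counting alone gives the largest spread for TNR, VCAN and GPR17, 3.71% to 4.69% per library. TNR varied by little more, 4.36% in morphine and 5.21% in saline libraries. VCAN (8.80% and 7.95%) and GPR17 (7.60% and 17.0%) varied by more than counting gives.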
